A study of Mus musculus with 11 samples.

Results

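The genes described here are 42 cell cycle and DNA replication genes, chosen by symbol from the 21677 genes listed in the exon count files of the series. They fall into 18 genes of the G1/S transition and of DNA replication and 24 genes of mitosis. All 42 were found in the exon files, and 40 of them carried reads in the intron files. RNA came from C2C12 cells, a mouse myoblast line, transduced at a multiplicity of infection of 100 with an adenovirus whose U6 promoter drives either a short hairpin against the zinc finger gene Zc3h10 or a scrambled hairpin. All cells, controls included, therefore carried an adenovirus, were confluent, and received 300 µM 4-thiouridine (4sU) for 30 min. RNA that had taken up 4sU was recovered through biotin and is called 4sU or newly made RNA here (3 libraries under the shZc3h10 label and 2 under the scramble label). Total RNA from the same harvests was sequenced beside it, with 3 libraries of each hairpin.

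Cells that commit to division pass the G1/S transition, where cyclin E (Ccne1, Ccne2) activates Cdk2 and the E2F factors switch on the genes needed to copy DNA. Origins of replication are licensed when Cdc6 and Cdt1 load the Mcm2 to Mcm7 helicase, the clamp Pcna holds polymerases on DNA, and Rrm1, Rrm2, Tyms and Tk1 supply deoxynucleotides. Later, cyclins A and B with Cdk1, the Aurora and Polo kinases, spindle motors and checkpoint proteins drive mitosis, and their genes are repressed by the DREAM complex in resting cells and switched on by B-Myb and FoxM1 through CHR elements. Myoblasts leave this cycle when they differentiate into muscle fibres.

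Promoter sequence was not used to choose the genes, and it differed between the classes. Of the 42 genes, 34 matched an entry of the RefSeq promoter table (build GRCm38.p6), each entry holding 250 bases before and 50 bases after an annotated start. An E2F site was searched as TTTCCCGC, TTTCGCGC, TTTGGCGC or TTTGCCGC, a CHR as TTTGAA or TTCGAA, and a CCAAT box as CCAAT, on both strands, and no one of these motifs contains another. E2F letters were present for 7 of 15 G1/S and replication genes (46.7%), for 1 of 19 mitotic genes (5.26%), and for 2.6% of all genes in the table. The CHR letters gave the opposite order, with 14 of 19 mitotic genes (73.7%), 2 of 15 G1/S and replication genes (13.3%) and 21.7% of all genes. CCAAT letters were present for 16 of 19 mitotic genes (84.2%), 9 of 15 G1/S and replication genes (60%) and 41.1% of all genes. Both CHR and CCAAT letters stood in 15 of 20 mitotic entries, against 7.52% of all promoters in the table. A match is a description of these windows and not evidence of a bound site.

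**Figure D1:**
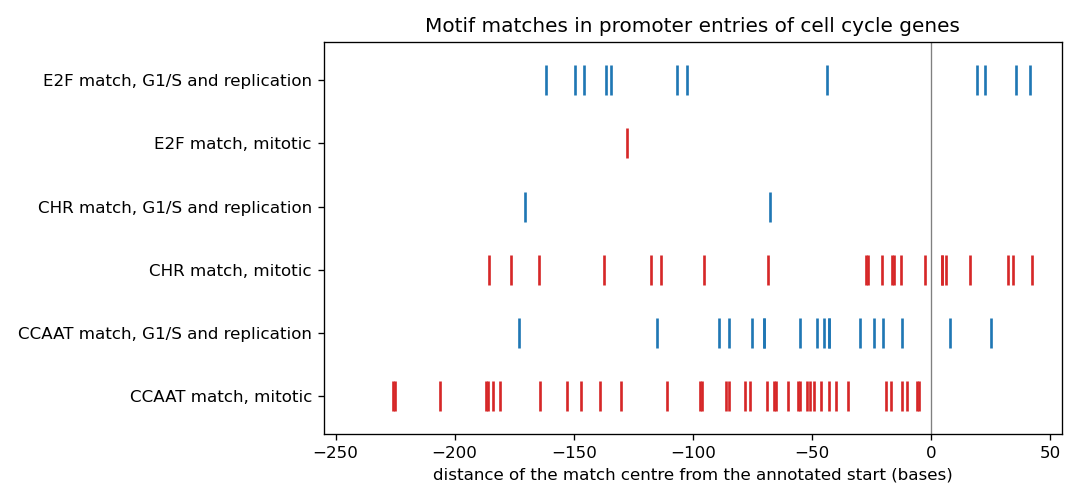
Positions of E2F, CHR and CCAAT letters in the promoter entries of the 2 classes. The horizontal axis is the distance of a match's centre from the annotated start in bases, each tick is a match, and blue and red mark G1/S and replication genes and mitotic genes. The mitotic CHR matches gather near the start, with a median first base at −21, and E2F ticks are nearly all blue.

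The promoters below are of genes whose new RNA fell, and motif content played no part in their choice. They belong, in each class, to the 2 genes with the smallest p in exons of 4sU RNA among those with an entry. Capitals mark E2F, CHR and CCAAT letters in either orientation. Mcm3 (chr1:20820263-20820562, minus strand) encodes a helicase subunit, and Cdt1 (chr8:122567765-122568064, plus strand) the licensing factor that loads the helicase. Ube2c (chr2:164769679-164769978, plus strand) encodes the ubiquitin-conjugating enzyme of the anaphase-promoting complex, and Plk1 (chr7:122159185-122159484, plus strand) Polo-like kinase. Mcm3 carries E2F letters GCGGGAAA and TTTGGCGC 19 and 38 bases after the start, and Cdt1 carries TTTGGCGC 32 bases after it.
Mcm3: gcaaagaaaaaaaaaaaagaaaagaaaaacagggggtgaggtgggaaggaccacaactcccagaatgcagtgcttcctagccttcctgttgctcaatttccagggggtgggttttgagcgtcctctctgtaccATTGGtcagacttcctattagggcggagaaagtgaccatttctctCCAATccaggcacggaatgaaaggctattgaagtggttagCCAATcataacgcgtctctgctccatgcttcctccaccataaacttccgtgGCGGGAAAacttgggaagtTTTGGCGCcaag
Cdt1: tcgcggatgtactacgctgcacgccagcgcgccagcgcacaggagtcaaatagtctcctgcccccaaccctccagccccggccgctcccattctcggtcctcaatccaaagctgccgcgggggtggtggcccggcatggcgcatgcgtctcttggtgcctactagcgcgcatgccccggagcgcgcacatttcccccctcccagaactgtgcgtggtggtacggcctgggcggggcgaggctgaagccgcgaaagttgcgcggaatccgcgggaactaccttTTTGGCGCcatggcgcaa
Ube2c: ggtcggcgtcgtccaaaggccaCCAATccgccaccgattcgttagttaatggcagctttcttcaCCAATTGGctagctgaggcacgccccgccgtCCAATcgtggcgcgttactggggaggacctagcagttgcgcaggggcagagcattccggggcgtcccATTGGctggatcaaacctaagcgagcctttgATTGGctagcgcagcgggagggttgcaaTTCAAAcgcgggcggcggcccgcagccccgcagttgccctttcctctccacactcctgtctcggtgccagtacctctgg
Plk1: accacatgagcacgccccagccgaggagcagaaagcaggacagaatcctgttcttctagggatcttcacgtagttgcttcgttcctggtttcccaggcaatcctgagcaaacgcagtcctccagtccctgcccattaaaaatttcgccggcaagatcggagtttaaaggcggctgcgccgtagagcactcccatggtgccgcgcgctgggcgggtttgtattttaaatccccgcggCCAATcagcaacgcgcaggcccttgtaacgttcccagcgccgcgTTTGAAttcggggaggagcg
In Ube2c the CHR letters begin at −29, and in Plk1 at 30, with a CCAAT box at −14.

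The knockdown label was checked on its target before anything else. Exons of Zc3h10 in 4sU RNA stood at 21.5 and 20.1 CPM in the scramble libraries and at 13.2, 18.8 and 12.8 CPM in those labelled shZc3h10, so the groups did not overlap. CPM here are counts scaled to the size of the normalised library. The log2 fold change was −0.49 (SE 0.19), which missed the threshold (adjusted p = 0.128). This p comes from edgeR's quasi-likelihood fit, adjusted over all genes by Benjamini-Hochberg, as do all below, and a gene is called where it is under 0.05. Introns of Zc3h10 in 4sU RNA were at −0.97 (SE 0.35, adjusted p = 0.0842) and missed it too, so 4sU RNA did not establish the knockdown. In total RNA exons of Zc3h10 went the other way. They stood at 43.6, 52.8 and 29.6 CPM under the scramble label and 69.6, 114 and 75.0 CPM under the shZc3h10 label (log2 fold change 1.04, SE 0.30, adjusted p = 0.0522). Introns in total RNA were called higher (1.07, SE 0.26, adjusted p = 0.0325). All 6 total RNA files also carry the other hairpin in their names. Directions in total RNA are therefore given for libraries as labelled, and which label is right was not tested.

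Exon counts ran from 10369374 to 19690198 a library for 4sU RNA and from 31058706 to 54075687 for total RNA. Of all counts, introns held 70.2 to 71.7% under shZc3h10 and 67.9 to 68.4% under scramble among 4sU libraries, and 10.7 to 13.8% and 15.3 to 21.9% among total RNA libraries. Myoblast markers, as a sum of 6 genes, were at 1522 to 1557 CPM in 4sU scramble libraries and 842 to 922 CPM in 4sU shZc3h10 libraries, and none was at 0. In total RNA their sum was 1241 to 1938 CPM under scramble and 2586 to 3289 CPM under shZc3h10. Gene by gene, 3 were above 0 and 3 below 0 there, in exons and again in introns. In exons 1 was called higher and in introns 2, against 3.06% and 3.08% of all genes. Of these 6 genes, 3 fell in 4sU exons (Itga7, Cdh15 and Des), and Pax7 and Myod1 were above 0, at 0.34 and 0.03, without passing. In introns of 4sU RNA 3 of the 6 were called lower and 1 higher, the last being Pax7 (0.49, adjusted p = 0.00295). Markers of differentiating muscle summed to 170 to 210 CPM under scramble and 169 to 211 CPM under shZc3h10 in 4sU RNA, and to 237 to 257 and 267 to 303 CPM in total RNA. Sums of 4 macrophage, 4 endothelial and 4 adipocyte markers reached at most 27.6, 1.46 and 1.04 CPM in any 4sU library, with up to 2, 1 and 3 of the 4 at 0. The intronic share and the summed myoblast markers separated the hairpins in both kinds of RNA, the muscle markers did so in total RNA, and their part in the results below was not tested.

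Newly made exonic RNA of cell cycle genes was lower in the cells given the Zc3h10 hairpin, in both classes. Of the 42 genes, 18 fell and 0 rose, while 10.4% of all 13637 genes tested were called (4.69% lower and 5.66% higher). Among mitotic genes 13 of 24 fell, with a median log2 fold change of −0.47, and among G1/S and replication genes 5 of 18 fell, with a median of −0.33. The median over all genes tested was −0.00. The fold change was below 0 for 41 of 42 genes, against 50.5% of all genes tested. At an unadjusted p below 0.05, 32 of 42 were lower, against 1545 of all 13637 genes. The exception was cyclin D1 (Ccnd1), the growth-factor-responsive G1 cyclin, at 159 and 155 CPM under scramble and 147, 167 and 161 CPM under shZc3h10 (log2 fold change 0.01). In bulk RNA, fewer cells in a phase of the cycle and less RNA per cell cannot be told apart.

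**Figure D2:**
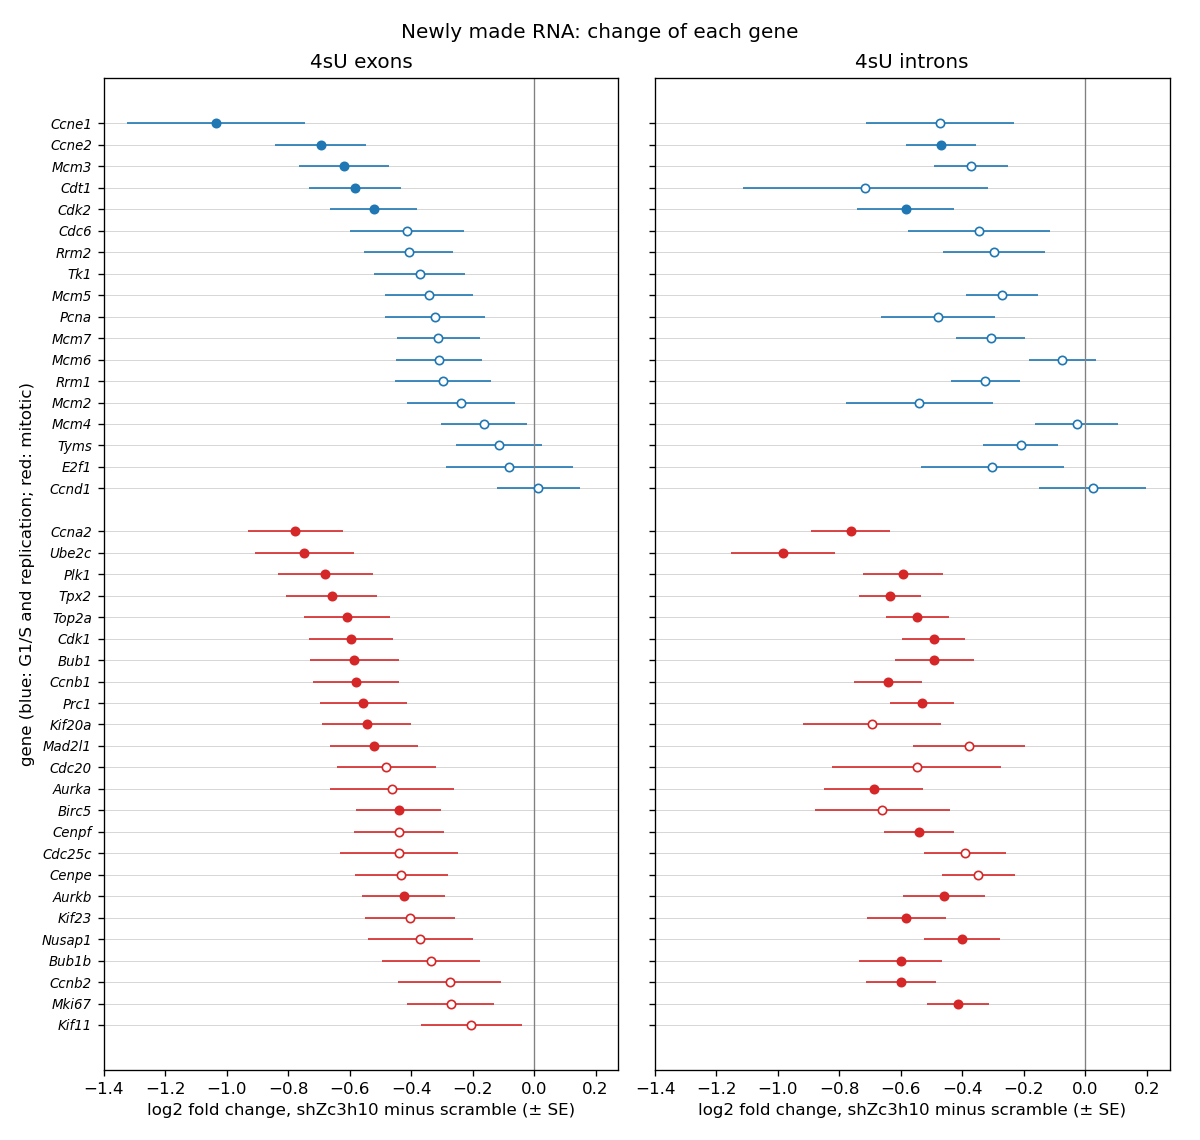
Change of each gene in newly made RNA, exons at left and introns at right. The horizontal axis is the log2 fold change of shZc3h10 (n = 3) against scramble (n = 2), bars are ± 1 SE, filled points are called at an adjusted p below 0.05 and open points are not. All exonic points but that of Ccnd1 lie below 0, and filled points are 5 of 18 in blue (G1/S and replication) and 13 of 24 in red (mitotic).

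At the G1/S transition, cyclin E fell. Ccne2 stood at 64.3 and 73.8 CPM under scramble and at 42.5, 39.0 and 46.2 CPM under shZc3h10, a log2 fold change of −0.69 (SE 0.15, adjusted p = 0.00365). Ccne1, a much weaker gene here, stood at 7.47 and 5.42 CPM against 2.30, 3.57 and 3.66 CPM (−1.04, SE 0.29, adjusted p = 0.024). Neither gene's groups overlapped. Their kinase Cdk2 stood at 99.6 and 93.0 CPM against 62.5, 70.6 and 68.3 CPM (−0.52, SE 0.14, adjusted p = 0.0194). E2f1, the activator E2F upstream of these genes, was at −0.08 (SE 0.21) and did not pass, and its groups overlapped.

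Among licensing genes, Cdt1 fell from 57.9 and 66.4 CPM to 37.4, 42.5 and 44.7 CPM (−0.58, SE 0.15, adjusted p = 0.0146). Its partner Cdc6, which recruits Cdt1 to origins, was at −0.41 and did not pass. Of the 6 helicase subunits only Mcm3 fell, at 79.3 and 74.1 CPM under scramble and 50.9, 45.0 and 53.8 CPM under shZc3h10 (−0.62, SE 0.15, adjusted p = 0.00766). The other subunits had fold changes below 0 that did not pass, from −0.34 (Mcm5) and −0.31 (Mcm6 and Mcm7) to −0.24 (Mcm2) and −0.16 (Mcm4). Whether Mcm3 changed more than the other subunits was not tested. The 13 G1/S and replication genes without a call ranged from −0.41 (Cdc6) to 0.01 (Ccnd1), among them the clamp Pcna at −0.32 and the nucleotide genes Rrm2 at −0.41, Tk1 at −0.37, Rrm1 at −0.30 and Tyms at −0.11.

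Of the genes for cyclins A and B and for Cdk1 and its phosphatase, which drive mitotic entry, 3 fell. Cyclin A2 (Ccna2), which acts in S phase and at mitotic entry, had the smallest p of all 42 genes. It stood at 328 and 373 CPM under scramble and at 196, 169 and 248 CPM under shZc3h10 (−0.78, SE 0.15, adjusted p = 0.00188). Cdk1, the mitotic kinase, stood at 152 and 150 CPM against 99.4, 92.4 and 107 CPM (−0.60, SE 0.14, adjusted p = 0.00668). Ccnb1, its cyclin, fell by 0.58 on the log2 scale (SE 0.14, adjusted p = 0.00896). In these 3 genes every shZc3h10 library lay below both scramble libraries. Cyclin B2 (Ccnb2, −0.27) and Cdc25c (−0.44), the phosphatase that activates Cdk1, did not pass.

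Among genes acting later in mitosis, Plk1, Tpx2, Ube2c and Top2a had the smallest p. Plk1 stood at 59.9 and 48.6 CPM against 36.4, 32.2 and 33.1 CPM (−0.68, SE 0.15, adjusted p = 0.00596). Tpx2, which activates Aurora A on the spindle, stood at 311 and 238 CPM against 191, 155 and 177 CPM (−0.66, SE 0.15, adjusted p = 0.00528). Ube2c stood at 82.3 and 57.9 CPM against 44.5, 40.0 and 40.9 CPM (−0.75, SE 0.16, adjusted p = 0.0038). In all 3 genes scramble library 1 was the highest library and the groups did not overlap. Top2a, the topoisomerase that untangles sister chromatids, stood at 670 and 628 CPM against 485, 375 and 416 CPM (−0.61, SE 0.14, adjusted p = 0.00627).

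**Figure D3:**
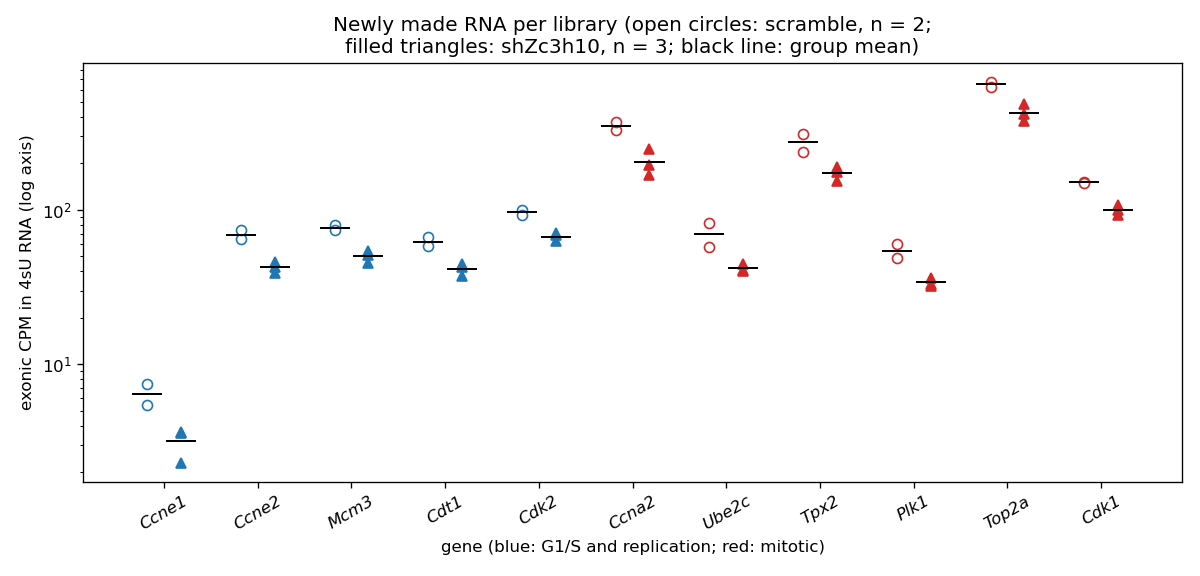
Exonic level in newly made RNA of 5 G1/S and replication genes (blue) and 6 mitotic genes (red), by library. The vertical axis is CPM on a log scale, open circles are scramble libraries (n = 2), filled triangles are shZc3h10 libraries (n = 3) and black lines are group means. For each of these 11 genes, every triangle lies below both circles.

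The other 6 called mitotic genes had larger p. Checkpoint kinase Bub1 was at −0.59 (adjusted p = 0.0111) and the spindle checkpoint protein Mad2l1 at −0.52 (adjusted p = 0.0214). The cytokinesis genes Prc1, a bundler of midzone microtubules, and Kif20a, a midzone motor, were at −0.56 (adjusted p = 0.0137) and −0.54 (adjusted p = 0.018). Birc5 and Aurkb, both of the chromosomal passenger complex, were at −0.44 and −0.42, with adjusted p of 0.0437 and 0.0496. The call of Aurkb was lost when any shZc3h10 library was left out. Those of Birc5 and of the G1/S gene Cdk2 were lost for most of these libraries. Just past the threshold stood the centromere protein gene Cenpf (−0.44, adjusted p = 0.0628) and Cdc20, the activator of the anaphase-promoting complex (−0.48, adjusted p = 0.0644). The 11 mitotic genes without a call ranged from −0.48 (Cdc20) to −0.20 (Kif11, the motor that separates spindle poles), with the proliferation marker Mki67 at −0.27.

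Without regard to the model, every shZc3h10 library lay below both scramble libraries for 12 of 18 G1/S and replication genes and 22 of 24 mitotic genes. Over all genes tested 18.9% did so. The median gene of each class, as a log2 deviation from the mean of the 2 groups, lay between 0.19 and 0.20 in the scramble libraries and between −0.27 and −0.11 in the shZc3h10 libraries for G1/S and replication. For mitotic genes it lay between 0.24 and 0.25, and between −0.38 and −0.17. Calls depended on the scramble libraries, of which there are only 2. Without scramble library 1, 5 genes were called (Ccna2, Ccne2, Cdt1, Bub1 and Prc1), and without scramble library 2, 8 were. Leaving out shZc3h10 library 1, 2 or 3 gave 14, 19 or 13. Only Ccna2 was called in all 5 of these fits, and no gene changed direction among those called.

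**Figure D4:**
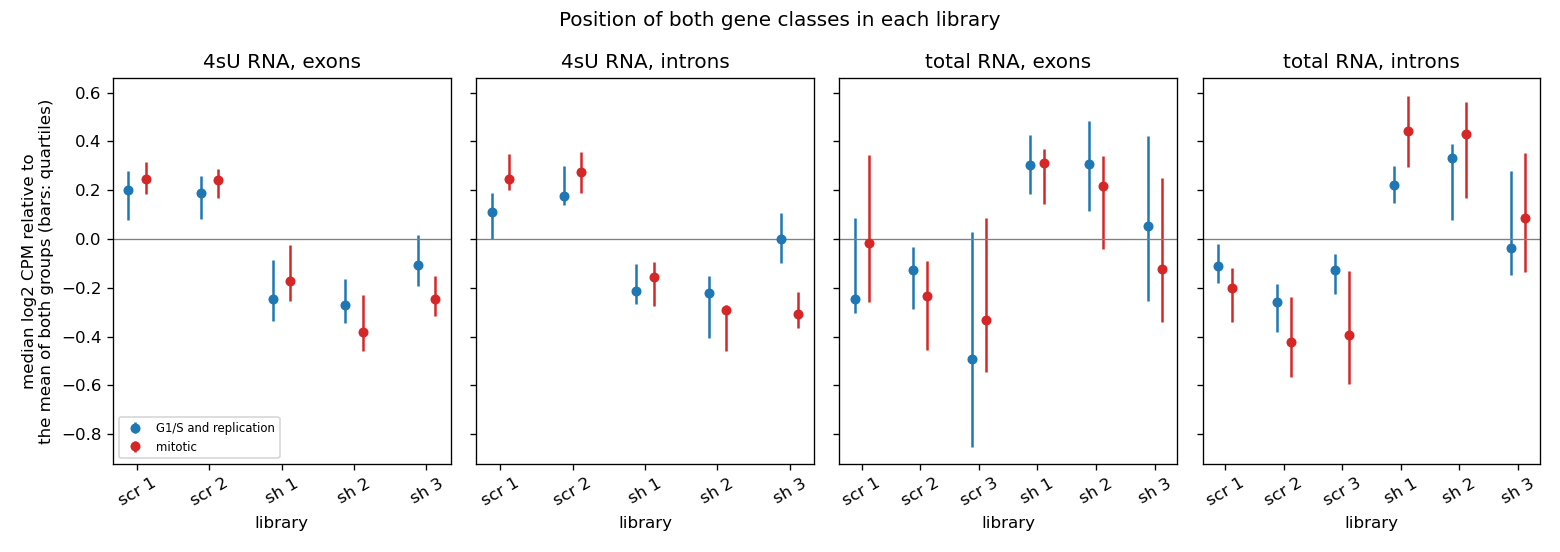
Position of both gene classes in each library, for exons and introns of newly made and total RNA. The vertical axis is the median log2 CPM relative to the mean of both groups, bars span the quartiles over genes, and blue and red are G1/S and replication and mitotic genes. In 4sU exons both classes lie above 0 in the scramble libraries (scr) and below 0 in those labelled shZc3h10 (sh), and in total RNA the order is reversed, with mitotic exons of the 2 groups overlapping.

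Introns, which are present in RNA that has not been spliced yet, fell mainly in mitotic genes. Of 23 mitotic genes tested 17 fell, with a median log2 fold change of −0.55, and of 17 G1/S and replication genes 2 fell, with a median of −0.33. Over all 13553 genes tested 15.5% were called (6.57% lower, 8.95% higher), and the median was 0.01. The 2 G1/S and replication calls, 11.8% of that class, are near these shares. The classes were not tested against each other, and their median SE differed, at 0.16 for G1/S and replication and 0.13 for mitotic genes. Tk1 and Kif11 were not tested because their introns are listed at 0 in all 11 libraries. These tests use the same 5 libraries as those on exons.

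Ube2c had the largest fall among introns, from 19.7 and 20.2 CPM under scramble to 11.5, 7.85 and 10.8 CPM under shZc3h10 (−0.98, SE 0.17, adjusted p = 0.00159). Introns of Ccna2 stood at 82.6 and 86.0 CPM against 49.0, 41.5 and 58.3 CPM (−0.76, SE 0.13, adjusted p = 0.00139). Those of Tpx2 stood at 192 and 160 CPM against 117, 116 and 106 CPM (−0.64, SE 0.10, adjusted p = 0.000893), the smallest p of the set. In all 3 genes the groups were apart. Aurora A (Aurka), the centrosomal kinase, was at −0.69 (SE 0.16, adjusted p = 0.0117) and Ccnb1 at −0.64 (SE 0.11, adjusted p = 0.00177). Ccnb2 and the checkpoint gene Bub1b were both at −0.60, with adjusted p of 0.00313 and 0.0091. Introns of Aurka, Ccnb2 and Bub1b were thus called while their exons, at −0.46, −0.27 and −0.34, were not.

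The G1/S genes called in introns were Ccne2 and Cdk2. Introns of Ccne2 stood at 32.5 and 36.8 CPM against 24.7, 26.0 and 24.3 CPM (−0.47, SE 0.12, adjusted p = 0.0155). Those of Cdk2 stood at 24.9 and 22.7 CPM against 14.2, 14.0 and 19.4 CPM (−0.58, SE 0.16, adjusted p = 0.0259). All other introns of this class missed the threshold, from −0.72 (Cdt1, with an SE of 0.40 on 42 to 118 reads per library) to 0.02 (Ccnd1). Mcm3 was nearest, at −0.37 (adjusted p = 0.0568), and Mcm4 and Mcm6 stood at −0.03 and −0.07. Groups were apart, with shZc3h10 lower, for 10 G1/S and replication and 23 mitotic genes, against 22.1% of all genes tested. Without scramble library 1, 9 genes were called, without scramble library 2, 13, and without shZc3h10 library 1, 2 or 3, 15, 20 or 14. Ccna2, Ccnb1, Kif23, Top2a, Tpx2 and Ube2c were called in all 5 fits.

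Exons and introns were then compared within each library, which asks whether exonic and intronic reads of new RNA changed by different amounts. Exonic reads also come from unspliced RNA, so spliced and unspliced RNA were not compared directly. None of the 40 genes tested differed by edgeR and 0 by DESeq2, while edgeR called 0.144% of all 11812 genes (0.102% lower in exons, 0.0423% higher). At an unadjusted p below 0.05 stood 0 of the 40, against 1064 of all 11812 genes. The median difference, exons minus introns, was −0.02 for G1/S and replication genes and 0.03 for mitotic genes. Values ran from −0.57 (Ccne1, SE 0.34) to 0.32 (Ccnb2, SE 0.17). The median SE was 0.16 and 0.15 in the 2 classes, so small differences between exons and introns were not detectable in these 5 libraries. Introns held a median of 40.4% of a G1/S and replication gene's 4sU reads and 47.1% of a mitotic gene's, from 9.04% (Cdt1) to 80.8% (Cdk1), against 5.16% and 7.13% in total RNA.

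Other genes of the same pathways, listed by role, were measured in the same 4sU libraries, where 4.69% of all genes were called lower in exons and 6.57% in introns. Of 47 further mitotic genes tested 12 fell and 0 rose, with a median of −0.38, led by the cohesin-cutting protease separase (Espl1, −0.73, SE 0.15), the chromosomal passenger gene Cdca8 (−0.72, SE 0.17) and the abscission gene Cep55 (−0.71, SE 0.18). Of 39 further replication genes 2 fell and 0 rose (5.13%, near the share of all genes called lower), with a median of −0.23. The 2 were the flap endonuclease Fen1 (−0.84, SE 0.23) and the helicase cofactor Cdc45 (−0.63, SE 0.18). In introns 24 of 45 further mitotic and 10 of 39 further replication genes fell, and 0 rose in either list.

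Among 18 genes for E2F factors, pocket proteins and DREAM subunits, 4 fell and 0 rose in 4sU exons, against 4.69% of all genes called lower. The largest change was that of E2f2, an activator E2F. It stood at 99.7 and 85.9 CPM under scramble and at 32.9, 38.9 and 28.2 CPM under shZc3h10 (−1.48, SE 0.16, adjusted p = 2.34e-06), well apart. The other 3 that fell were E2f7 (−0.61, SE 0.14) and E2f8 (−0.48, SE 0.13), which repress E2F targets, and Foxm1 (−0.51, SE 0.15), the activator of mitotic genes. Mybl2, which encodes B-Myb and was picked after its value was seen, stood just outside at −0.62 (adjusted p = 0.0521). In introns 6 of 17 fell, against 6.57% of all genes, again with E2f2 first (−1.56, SE 0.12), and the pocket protein gene Rbl2, a DREAM subunit of resting cells, rose (0.37, SE 0.11).

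Of 10 G1 cyclins, their kinases and Cdk inhibitors tested, 3 fell in 4sU exons and 0 rose, against 4.69% of all genes called lower. Cyclin D2 (Ccnd2) stood at 54.5 and 47.4 CPM against 24.3, 21.7 and 24.4 CPM (−1.12, SE 0.16). Its kinase Cdk6 stood at 170 and 166 CPM against 85.7, 96.6 and 87.9 CPM (−0.90, SE 0.14). The Cdk inhibitor p21 (Cdkn1a) stood at 397 and 283 CPM against 181, 183 and 194 CPM (−0.87, SE 0.15). The groups were apart for all 3, and the median of the 10 genes was −0.07.

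In total RNA, as labelled, few cell cycle genes passed the test over exons. In the libraries labelled shZc3h10, 2 of 42 genes were higher and 0 lower (4.76% called), while 6.42% of all 13846 genes were called (3.06% higher, 3.36% lower), so the count is near the background. The fold change was above 0 for 33 of 42 genes and below 0 for 9, among them Kif11, E2f1, Cenpf and Cdk1. Over all genes tested 56.5% were below 0. The median log2 fold change was 0.61 for G1/S and replication genes and 0.31 for mitotic genes, against −0.10 over all genes. Rrm1, the large subunit of ribonucleotide reductase, stood at 403, 463 and 239 CPM under scramble and 652, 932 and 1226 CPM under shZc3h10 (1.35, SE 0.36, adjusted p = 0.0384). Ccne2 stood at 61.3, 83.0 and 33.8 CPM against 173, 245 and 75.1 CPM (1.47, SE 0.41, adjusted p = 0.0473). For Rrm1 the groups were apart, and for Ccne2 they overlapped, since shZc3h10 library 3 lay below scramble library 2. Just outside stood Mad2l1 (0.87, adjusted p = 0.0667) and Aurkb (1.33, adjusted p = 0.0676).

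The spread between total RNA libraries was large. Aurkb ran from 186 to 400 CPM under scramble and from 322 to 997 CPM under shZc3h10, which overlap. The 16 G1/S and replication genes without a call ranged from −0.55 (E2f1) to 0.94 (Cdk2), and the 24 mitotic genes from −0.61 (Kif11) to 1.33 (Aurkb). Every library labelled shZc3h10 lay above every scramble library for 12 of 42 genes, against 13.9% of all genes tested. The number called was 0, 10 or 0 without scramble library 1, 2 or 3, and 1, 0 or 6 without shZc3h10 library 1, 2 or 3. Of the 10 called without scramble library 2, 9 were higher and Kif11 was lower. DESeq2 called 11, all higher, among them the licensing genes Cdt1 (0.89) and Cdc6 (0.79). Calls over all genes rose as well, from 889 to 2588 without scramble library 2 and to 1890 by DESeq2.

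Over introns of total RNA 8 of 40 genes were higher and 0 lower, against 5.18% of all 13877 genes called (3.08% higher, 2.1% lower). They were 7 of 23 mitotic genes (median 0.65) and 1 of 17 G1/S and replication genes (median 0.41), and the median over all genes was −0.02. The 1 of 17, or 5.88%, is near the share of all genes called. Ccna2 stood at 74.2, 95.1 and 75.2 CPM under scramble and 157, 194 and 334 CPM under shZc3h10 (1.49, SE 0.25, adjusted p = 0.00434), with the groups apart. Mad2l1 stood at 15.6, 18.9 and 11.0 CPM against 37.3, 43.4 and 28.3 CPM (1.27, SE 0.28, adjusted p = 0.0199). The helicase gene Mcm7 stood at 140, 120 and 83.4 CPM against 196, 209 and 286 CPM (1.01, SE 0.22, adjusted p = 0.0163). The groups were apart for both. Aurkb stood at 51.3, 61.3 and 37.6 CPM against 102, 99.8 and 84.3 CPM (0.93, SE 0.21, adjusted p = 0.0234).

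The other 4 genes called over introns of total RNA were Kif20a (1.07, adjusted p = 0.0348), Plk1 (1.00, adjusted p = 0.0457), Cenpf (0.78, adjusted p = 0.0243) and Top2a (0.72, adjusted p = 0.0496). Tpx2 stood just outside at 0.69 (adjusted p = 0.0511). Ccnd1 had the only value below 0, at −0.63, and did not pass, while 52.1% of all genes tested were below 0. Groups were apart, with shZc3h10 higher, for 7 G1/S and replication and 14 mitotic genes, against 13.7% of all genes tested. They were apart the other way for Ccnd1 alone, against 9.45% of all genes. Without scramble library 1, 2 or 3 the number called was 2, 7 or 6, and without shZc3h10 library 1, 2 or 3 it was 2, 1 or 6. Only Ccna2 was called in all 6 fits.

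**Figure D5:**
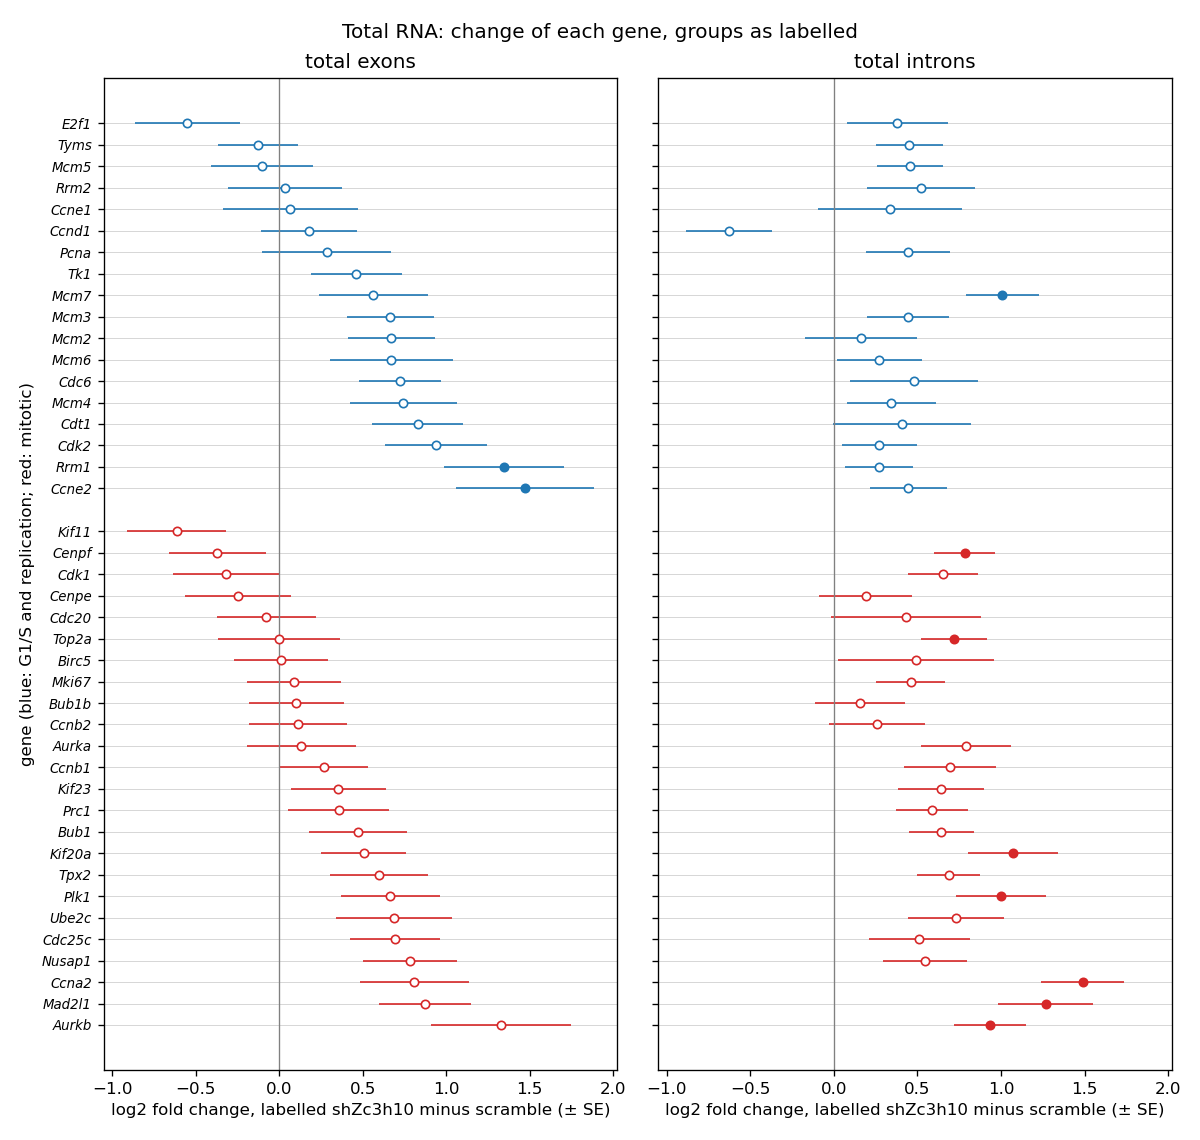
Change of each gene in total RNA with the groups as labelled, exons at left and introns at right. The horizontal axis is the log2 fold change of libraries labelled shZc3h10 against those labelled scramble (n = 3 each), bars are ± 1 SE, and filled points are called at an adjusted p below 0.05. Filled points are 2 in exons (Rrm1 and Ccne2) and 8 in introns, all to the right of 0, with wider bars than in newly made RNA.

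Of the regulators, E2f2 was again among the genes with a call in exons of total RNA, at 24.5, 24.3 and 24.7 CPM under scramble and 61.8, 57.4 and 70.2 CPM under shZc3h10 (1.37, SE 0.25, adjusted p = 0.00609). E2f8 (1.43, SE 0.31) and the DREAM subunit gene Lin52 (1.36, SE 0.35) were also higher, which makes 3 of 18 called, against 3.06% of all genes called higher. Among 10 G1 regulators tested 1 was higher, Cdkn1a (1.32, SE 0.29), and 1 lower, the Cdk inhibitor Cdkn1c (−1.56, SE 0.43). Of all genes 3.06% were called higher and 3.36% lower. Of the further mitotic genes 2 of 47 were higher, the cytokinesis scaffold Anln (1.77, SE 0.33) and the phosphatase Cdc25b (1.27, SE 0.32), and of the further replication genes 1 of 39, Mcm10 (1.00, SE 0.26). These counts, 4.26% and 2.56%, are near the share of all genes called higher.

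The difference between the effects in the 2 kinds of RNA was tested in a fit of all 11 libraries. For 20 of 42 genes the labelled hairpin effect was lower in 4sU RNA than in total RNA, and for 0 it was higher, while 14.1% of all 15046 genes were called (8.56% lower, 5.55% higher). They were 8 of 18 G1/S and replication genes (median −1.07) and 12 of 24 mitotic genes (median −0.96), with a median of 0.00 over all genes. Ccne2 had the largest difference, −2.34 (SE 0.53, adjusted p = 0.00643), followed by Aurkb at −1.92 (SE 0.52, adjusted p = 0.0185), Rrm1 at −1.79 (SE 0.41, adjusted p = 0.00675) and Ccna2 at −1.72 (SE 0.37, adjusted p = 0.00496). Top2a, Cdk1 and Mki67, at −0.75, −0.44 and −0.51, did not pass. The size, the sign and the calls of this difference, and the order of the genes, all rest on the total RNA labels. Zc3h10 itself was at −1.68 (SE 0.38) in the same fit. It stood higher in total RNA under the shZc3h10 label, and which label is right was not tested. Without 4sU scramble library 1, 4sU scramble library 2 or 4sU shZc3h10 library 2 the number called was 7, 12 or 13. Ccna2, Ccne2, Cdk2, Cdt1, Mad2l1, Mcm3 and Rrm1 were called in all 11 fits that left out a library.

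Averaged with equal weight over both hairpins, most cell cycle genes were lower in newly made than in total RNA, relative to the typical gene. The labelled groups enter this fit, but exchanging the hairpin labels of all total RNA libraries would not change it. Of 42 genes 28 were lower and 10 higher in 4sU RNA, while 71% of all 15046 genes were called (35.9% lower and 35.1% higher). All 18 G1/S and replication genes were called, 14 lower and 4 higher, with a median of −1.27. Of 24 mitotic genes 14 were lower and 6 higher, with a median of −0.65, against −0.01 over all genes. A value here is relative to the typical gene, because all 11 libraries were normalised together. It is not a difference in the share of counts, which was not tested.

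The genes lowest in new relative to total RNA were Aurkb (−2.45, SE 0.28), Rrm1 (−2.12, SE 0.22), Pcna (−2.01, SE 0.27) and Mcm2 (−1.88, SE 0.17). Those highest were Birc5 (2.13, SE 0.16), the kinetochore motor Cenpe (1.24, SE 0.20), Tyms (1.22, SE 0.13) and Rrm2 (1.14, SE 0.21). CPM, unlike these fold changes, were scaled within each kind of RNA, so the 2 do not match in size. Birc5 stood at 117 to 123 CPM in 4sU scramble libraries and at 9.36 to 17.1 CPM in total scramble libraries. Aurkb, its partner in the passenger complex, stood at 168 to 173 and 186 to 400 CPM. The subunits of ribonucleotide reductase, Rrm1 and Rrm2, thus stood at opposite ends. Both E2f1 (0.85, SE 0.20) and Ccne1 (1.07, SE 0.27) were higher in new RNA, whereas Ccne2 was lower (−1.66, SE 0.28). All 6 Mcm genes were lower, from −1.88 (Mcm2) to −0.98 (Mcm4). The 4 genes without a call were Ube2c (−0.48), Plk1 (−0.36), Bub1 (−0.30) and Cdk1 (−0.13). Of the 38 calls 34 held in all 11 fits that left out a library, and those of Cdc20, Cdc6, Kif11 and Kif23 did not, with adjusted p up to 0.152, 0.0505, 0.0553 and 0.0722. Without 4sU scramble library 1 or 2 the number called was 35 in each case.

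Per kilobase of exon, using GENCODE vM21 gene models, the 42 genes spanned a wide range in new RNA of scramble cells. Mcm6 was highest at 167 ± 12.6 CPM per kb (SD, n = 2), followed by Prc1 at 90.6 ± 6.08, Mcm7 at 86.5 ± 6.63 and Ccna2 at 85.9 ± 7.86, which lie within each other's spread. Ccne1 was lowest at 2.42 ± 0.546 CPM per kb, below E2f1 at 3.55 ± 0.458. Subunits of the helicase, which assemble in equal numbers, differed in this level from 167 (Mcm6) through 59.9 ± 6.13 (Mcm4) and 20.4 ± 0.988 (Mcm3) to 4.63 ± 0.249 CPM per kb (Mcm2). In total RNA of the scramble label Mcm6 was again highest, at 228 ± 90.9 CPM per kb (n = 3), and Ccne1 again lowest, at 0.452 ± 0.172. The union of all annotated exons was used as length, so a gene with long rarely used exons is understated.

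Some of these counts are uncertain. Exons of 14 of the 42 genes share bases with another gene, 13 of them with one on the opposite strand, and the use of strand in counting is not given in the sources used here. The longest shared stretches are those of Kif20a with Cdc23 (1271 bases), Ccnd1 with LTO1 (1100), Prc1 with Rccd1 (911), Cdc25c with Gm3550 (623), Ccne2 with Ints8 (609), Ube2c with Tnnc2 (592) and Ccna2 with Exosc9 (510). Cdk2, Mcm7, Tk1, Cdc20, Nusap1, Plk1 and Top2a share shorter ones. Genes with processed pseudogenes, such as Pcna, can also share reads with those copies.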

How the data were processed

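The deposited files hold raw counts of reads per gene, over exons and over introns, for each of 11 libraries. According to the submitters' processing notes, the authors mapped reads with TopHat and TopHat2 2.0.8, and the build was mm9. Counting program, annotation and strand use: not given in the sources used here. Total RNA was depleted of rRNA, and cDNA was random-primed and tagmented, per the labels' protocols. Groups follow the titles and genotype labels. No label ties replicates to separate cultures, so a p-value reflects the spread among libraries only, and that spread may be technical. Every pair of replicates differed beyond counting noise.

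Counts were tested with edgeR 4.0.16 in R 4.3.3 (quasi-likelihood test, normalisation by the trimmed mean of M values within each fit). The filterByExpr function kept genes (count threshold 10, total threshold 15). P-values were adjusted by Benjamini-Hochberg over all genes tested and called below 0.05, and the SE was derived from the F statistic. Fits covered exons and introns of 4sU RNA (3 against 2 libraries) and of total RNA (3 against 3), exons against introns of 4sU RNA with the library as a block, and all 11 exon libraries for both comparisons of the kinds of RNA. The fits were checked on simulated data. Alternatives were DESeq2 1.42.0, its size factors in edgeR, no filter on low counts, the replicate number as a block, Ccna2 counted with the G1/S genes, and leaving out each library. Lengths are from GENCODE vM21 and promoters from RefSeq (GRCm38.p6), and no coordinate was converted between builds.

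The 42 genes, the further lists (of which Kifc1, Cdkn2d and Mymk had no match in the files) and the marker lists (myoblasts, differentiating muscle, macrophages, endothelium and adipocytes) were chosen with earlier results of these data known. Any of the 42 genes could be named. Values by library are given for up to 6 called genes per class in 4sU exons, by smallest p, for those called in total exons, and for up to 3 per class called in introns. Further lists name up to 3 called genes in each direction, or all where few were called.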

Additional observations from a re-analysis of the deposited data

Results flagged for a closer look

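The effect of the labelled hairpin differed between 4sU and total RNA for 20 of the 42 genes, by a test of the difference itself in exons of all 11 libraries (edgeR's quasi-likelihood test, adjusted p below 0.05). Values are the log2 effect in 4sU RNA minus that in total RNA, and all are negative. For G1/S and replication genes they were −2.34 for Ccne2, −1.79 for Rrm1, −1.61 for Cdk2, −1.56 for Cdt1, −1.43 for Mcm3, −1.28 for Cdc6, −1.07 for Mcm2 and −0.99 for Tk1. For mitotic genes they were −1.92 for Aurkb, −1.72 for Ccna2, −1.61 for Ube2c, −1.55 for Mad2l1, −1.51 for Plk1 and −1.42 for Tpx2. Smaller values were −1.30 for Nusap1, −1.29 for Cdc25c, −1.20 for Bub1, −1.20 for Kif20a, −1.05 for Prc1 and −1.01 for Ccnb1. Zc3h10, the target of the hairpin, also differed in this way, at −1.68. The size, sign and call of every value rest on the labels of the total RNA libraries. In those libraries Zc3h10 stood higher under the shZc3h10 label, and which label is right was not tested.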

How the results depend on the processing

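Of the alternatives run, none reversed the direction of a called gene. Of the 42 genes, 18 called in 4sU exons became 17 to 18 with other size factors, DESeq2 or no filter, and 5 to 19 with a library left out (5 without scramble library 1, 8 without scramble library 2). The 19 called in 4sU introns became 9 to 20 with a library left out (9 without scramble library 1) and 24 with no filter. For total exons, 2 became 11 with DESeq2, 4 with no filter, and 0 to 10 with a library left out. For total introns 8 became 1 to 7 with a library left out. The 20 genes whose effect differed between 4sU and total RNA became 7 to 24 with a library left out, and the 38 that differed between kinds of RNA became 35 to 39. Exons against introns gave 0 in every alternative. Over all genes, calls ran with a library left out from 724 to 1734 in 4sU exons (1412 with all), from 161 to 2588 in total exons (889 with all), and down to 935 in 4sU introns (2103 with all) and 217 in total introns (719 with all). DESeq2 called 1890 genes in total exons, 1172 in total introns and 115 for exons against introns (17 by edgeR), and no filter gave 1591 in total exons and 145 for exons against introns. For the difference in hairpin effect the range was 1029 to 3246 (2123 with all). Counting Ccna2 with the G1/S and replication genes gave class medians of −0.34 and −0.46 in 4sU exons. Where a group was left with 1 library, that library was assumed to vary like the other groups. Few reads limit precision for introns of Cdt1 (42 to 118 per 4sU library) and of Cdc20 (73 to 178), and for exons of Ccne1 (32 to 148).

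With the replicate number as a block, the called members were 6 in 4sU exons, 17 in 4sU introns, 0 in total exons, 1 in total introns, 14 for the difference between kinds of RNA in hairpin effect and 37 for 4sU against total RNA. The genes called in all were 809 in 4sU exons, 100 in total exons and 217 in total introns. Whether the replicate numbers pair the libraries was not settled. Deviations of same-numbered libraries from their group means correlated at −0.091 and −0.128 across genes in 4sU RNA. In total RNA they correlated at 0.169, −0.196 and −0.223. Such correlations cannot exclude pairing, because deviations within a group sum to 0, and those of the 2 scramble 4sU libraries are mirror images. Total RNA was kept from part of the 4sU harvest, but no label ties a number to a harvest. Across kinds of RNA, same-numbered libraries correlated at 0.079, 0.0026 and −0.065 for shZc3h10 and at 0.105 and 0.236 for scramble. In neither check did every library correlate best with its own number. Exons against introns already has the library as its block.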
